A study of Mus musculus with 2 samples.

Results

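The insulin-like growth factor (IGF) axis was examined in cultured rib chondrocytes through 10 genes, which encode 2 ligands, 2 receptors and 6 binding proteins. The members were taken by gene symbol: all probe sets whose only platform symbol was Igf1, Igf2, Igf1r, Igf2r, Igfbp2, Igfbp3, Igfbp4, Igfbp5, Igfbp6 or Igfbp7. These are 10 of the 18193 genes that had a probe set of their own on the array, and they were covered by 28 probe sets. A further probe set carried the symbols of both Igf2r and its antisense gene Airn and was not used.

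The study hybridised Affymetrix Mouse Genome 430 2.0 arrays with total RNA of cultured rib chondrocytes, the cells that lay down cartilage matrix, from mice aged 5 days. One array held RNA of wild-type cells and the other RNA of cells lacking the microRNA miR-140 (miR-140-/-), and it was meant to point to messenger RNAs that this microRNA may target. Both carried a strain label that names C57BL/6 and CBA. Whether cells of several mice were pooled, which part of the locus was removed and how long the cells were cultured was not given in the sources used here. With 1 array per group there is no spread between cultures, so no difference below has a test or a replicate check. Each describes this pair of arrays as knockout minus wild type on the log2 scale of the deposited signals. The number of arrays limits the precision.

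Igf1 and Igf2 are small secreted hormones that resemble insulin. They act through the receptor tyrosine kinase Igf1r, whereas Igf2r, which also sorts lysosomal enzymes, takes up Igf2 and sends it for degradation. IGF binding proteins hold the ligands outside the cell and can either withhold them from the receptor or keep them near it, and proteases release the ligands again. In the growth plate, the cartilage layer that lengthens bones, IGF signalling promotes chondrocyte growth and enlargement.

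The removed microRNA is shown first because it is what separates the genotypes. RefSeq places the mature strand mmu-miR-140-3p at chr8:107551288-107551308 of GRCm38.p6, plus strand, inside a hairpin of 70 bases. In the mature strand the capitals mark the seed, bases 2 to 8, with which a microRNA pairs to its targets. In the hairpin they mark the mature strand.
mmu-miR-140-3p: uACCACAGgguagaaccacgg
Mir140 hairpin: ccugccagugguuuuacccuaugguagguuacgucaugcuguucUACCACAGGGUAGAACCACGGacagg
A site that pairs with this seed reads CUGUGGU in the messenger RNA. The other mature strand is mmu-miR-140-5p, whose seed is not shown here. Igfbp5 has been proposed in earlier work as a target of miR-140, and which strand would pair with it was not examined here. Transcript sequences of the members were not used here, so which of them hold sites was not examined.

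Deposited signals ran from 3.24 to 14.2 in the wild-type array and from 3.28 to 14.1 in the knockout array. A gene was compared when the higher of its 2 signals reached 7, a floor under which signal lies close to background, and the probe set with the highest mean signal stood for it. This kept 9897 genes, whose median difference was -0.05 and of which 40.0% had higher and 59.2% lower signal in the knockout array. The label of the cells was checked against 16 chondrocyte markers, of which 15 were above the floor and Matn1 was under it in both arrays. All 15 had lower signal in the knockout array, 1 of them close to 0 at -0.07, with a median of -2.00, and Col2a1, the main cartilage collagen, read 13.98 and 11.98. In bulk RNA, fewer cells of a type and less RNA per cell cannot be told apart. The arrays also differed in Xist (3.59), in 3 Y-linked genes (-3.62 to -4.68) and in 3 probe sets for 18S ribosomal RNA (-0.31 to -1.28). These sex-linked genes differ in opposite directions, so genotype and the sex, or mix of sexes, of the mice cannot be told apart in any value below. The part of the chondrocyte marker and 18S differences in those values was not tested.

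Within the IGF axis, higher signal of Igf1 and lower signal of Igfbp2 were the 2 differences that passed 1.5-fold by the brightest probe sets. Igfbp5 also passed 1.5-fold, at 0.79, when its probe sets were averaged, of which the dimmer passed the floor through the knockout array alone. Of the 10 genes, 9 were above the floor, of which 6 had higher and 3 had lower signal in the knockout array, and Igfbp3 was under it. Among the 6, Igfbp6 passed the floor through the knockout array alone. Igf1 alone was at least 2-fold higher, and no member was 2-fold lower, against 0.475% and 1.22% of all compared genes. At 1.5-fold, 1 member was higher and 1 lower by the brightest probe sets, against 1.56% and 3.56% of all compared genes. The median over the 9 genes was 0.33, beside -0.05 over all compared genes. It was 0.17 with the mean of each gene's probe sets and 0.094 with values under 7 raised to 7. With a floor of 8, which Igfbp6 did not reach, the median was 0.18.

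**Figure D1:**
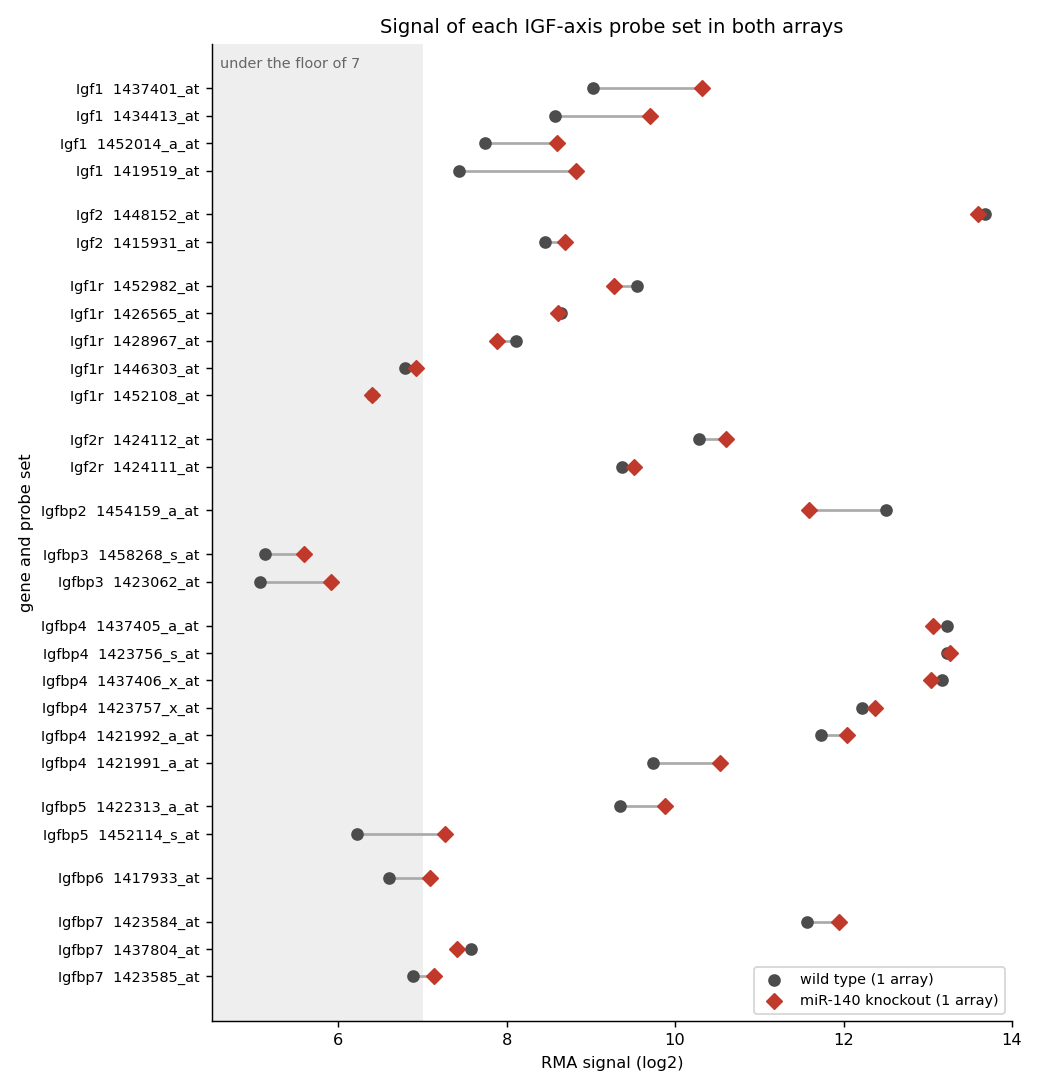
RMA signal (log2, horizontal axis) of each of the 28 probe sets of the IGF axis (rows) in the wild-type array (grey circles) and the miR-140 knockout array (red diamonds), 1 array each, with a line joining both. The shaded zone lies under the floor of 7; the longest lines to the right belong to Igf1, and the longest to the left to Igfbp2.

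The ligand Igf1, the main mediator of growth hormone action on growth, was measured by 4 probe sets, all above the floor. The brightest, 1437401_at, read 9.03 in the wild-type array and 10.33 in the knockout array, which is 2.45-fold higher by a difference of 1.30. Probe set 1434413_at read 8.57 and 9.70, a difference of 1.13. Probe set 1419519_at read 7.43 and 8.82, a difference of 1.39, and 1452014_a_at read 7.75 and 8.59, a difference of 0.84. Signal was thus higher in the knockout array by all 4 readings, and 3 of the 4 passed 2-fold.

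Igf1 ranked number 20 of the 9897 compared genes when these were ordered from the highest difference down. Of 482 genes with at least 4 probe sets above the floor, 2 had every one of them at least 1.5-fold higher in the knockout array, Igf1 and the matrix protein gene Tgfbi. Another 4 had every one at least 1.5-fold lower. Those counts were made after the values of Igf1 were seen. Probe sets of a gene share the RNA and the array, so their agreement says nothing about the spread between cultures.

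Igf2, the fetal growth factor expressed from the paternal allele, showed no such difference. Its brighter probe set, 1448152_at, read 13.68 (wild type) and 13.59 (knockout), a difference of -0.09. The dimmer one, 1415931_at, read 8.45 and 8.69, a difference of 0.24. The probe sets thus pointed in opposite directions, their mean differed by 0.07, and Igf2 is given no direction. Its brighter signal lies within 1 log2 unit of the highest signal of either array.

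Igf1r, the receptor kinase that carries the signal of both ligands, had slightly lower signal by each of its 3 probe sets above the floor. Probe set 1452982_at read 9.55 and 9.27, a difference of -0.28, and 1428967_at read 8.11 and 7.89, a difference of -0.22. Probe set 1426565_at read 8.64 and 8.61 and differed by -0.04. Of the 2 probe sets under the floor, one differed by 0.13 and the other was listed at 6.40 in both arrays. None of these values left the range of -0.69 to 0.47 that held the central 95% of compared genes.

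Igf2r, the clearance receptor, had the opposite sign by both of its probe sets. Probe set 1424112_at read 10.28 (wild type) and 10.61 (knockout), a difference of 0.33. Probe set 1424111_at read 9.37 and 9.51, a difference of 0.14. Both also lay inside the central 95% of compared genes.

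Igfbp2, a binding protein that mostly restrains IGF action, had the lowest difference of the axis. Its single probe set, 1454159_a_at, read 12.50 in wild-type RNA and 11.59 in knockout RNA. The signal was 1.88-fold lower in the knockout array, at -0.91. It was number 146 of the 9897 compared genes counted from the lowest difference up. No second probe set was there to set beside it. In the RefSeq annotation of GRCm38.p6 the protein-coding gene next to Igfbp2 on chromosome 1 is Igfbp5, and the 2 neighbours differed in opposite directions.

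Igfbp5, a binding protein that attaches to extracellular matrix, had higher signal in the knockout array by both of its probe sets. Probe set 1422313_a_at read 9.35 and 9.89, a difference of 0.53 (1.45-fold). Probe set 1452114_s_at read 6.23 and 7.27, a difference of 1.04. That probe set passed the floor through the knockout array alone, and averaging it in moves the gene from 0.53 to 0.79. Igfbp5 was number 183 from the highest difference down.

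**Figure D2:**
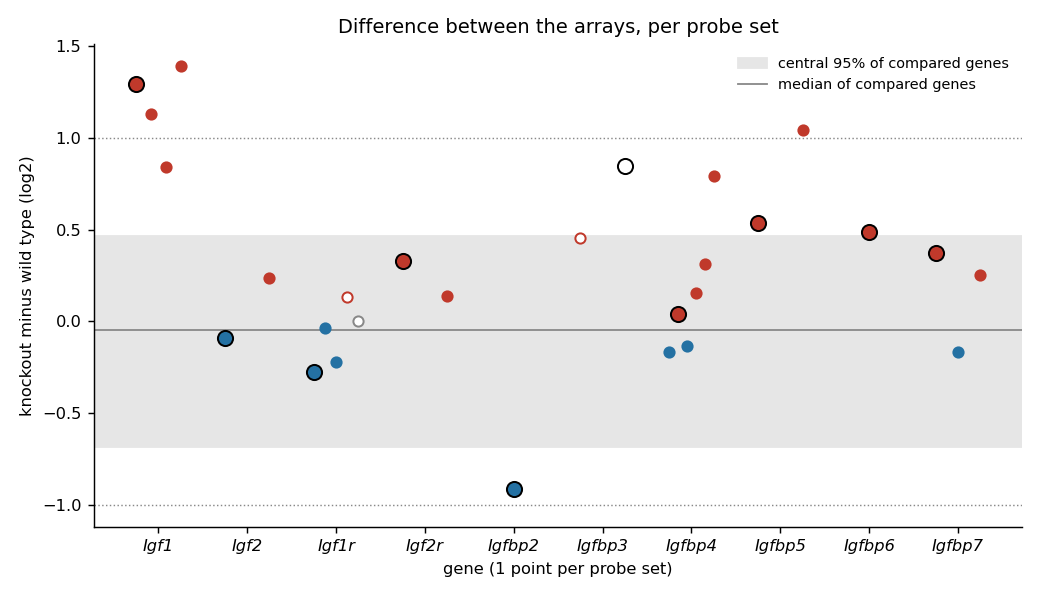
Knockout minus wild-type difference (log2, vertical axis) of each probe set, by gene. Large outlined points stand for the gene, open points lie under the floor, and red, blue and grey mean higher, lower and equal signal in the knockout array; the band is the central 95% of compared genes (-0.69 to 0.47), the solid line their median and the dotted lines 2-fold. All 4 Igf1 points lie above the band and the Igfbp2 point lies below it. The Igfbp5 and Igfbp6 points, the dimmest of Igfbp4 and an open one of Igfbp3 also lie above the band.

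Igfbp4, a binding protein that inhibits IGF action until it is cleaved, gave 6 readings whose difference went with their brightness. The 3 probe sets with wild-type signals of 13.17 to 13.23 differed by -0.16, -0.14 and 0.04. Probe set 1423757_x_at, at 12.22 and 12.37, differed by 0.16, and 1421992_a_at, at 11.73 and 12.04, differed by 0.31. The dimmest, 1421991_a_at, read 9.74 and 10.53, a difference of 0.79. These readings span 0.96, against a median span of 0.25 over the 3838 genes with at least 2 probe sets above the floor. The brightest value, 0.04, stands for the gene under the rule used here, and the mean of all 6 was 0.17.

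Igfbp7, a secreted protein that shares the binding domain but holds IGFs weakly, was read mainly by 1423584_at, at 11.57 (wild type) and 11.94 (knockout). The difference was 0.37 (1.29-fold). Its 2 dimmer probe sets, with wild-type signals of 7.57 and 6.88, differed by -0.17 and 0.26, and the mean of all 3 was 0.15. The dimmest, 1423585_at, passed the floor through the knockout array alone, at 7.14. The dimmer readings thus did not share a sign.

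Igfbp6, which prefers Igf2 over Igf1, sat at the floor. Its single probe set, 1417933_at, read 6.61 and 7.09, a difference of 0.49 that became 0.094 when values under 7 were raised to 7. Igfbp3, the main carrier in blood, stayed under the floor in both arrays. Its probe sets read 5.07 and 5.91 in one case and 5.14 and 5.59 in the other. Both readings were higher in the knockout array, by 0.85 and 0.45, but at this signal they are close to background and no fold is given.

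**Figure D3:**
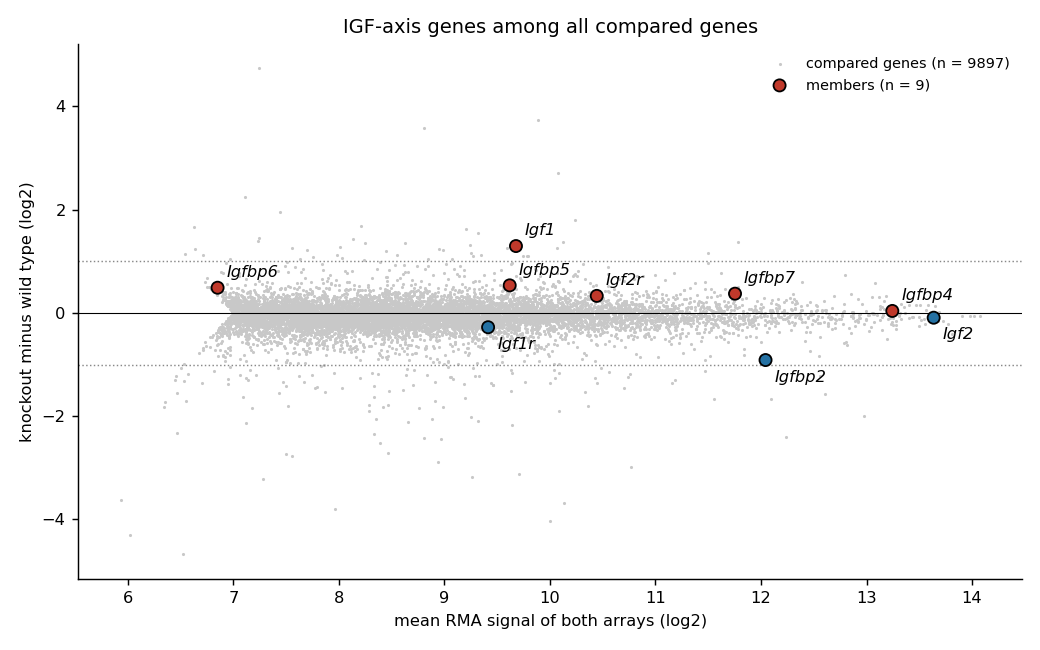
Knockout minus wild-type difference (log2, vertical axis) against mean signal of both arrays (log2, horizontal axis) for the 9897 compared genes (grey) and the 9 compared IGF-axis genes (outlined; red higher and blue lower in the knockout array). Dotted lines mark 2-fold; Igf1 lies above the upper one, and Igfbp2, at -0.91, just inside the lower one.

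Probe sets of a gene often disagreed on these arrays. Of the 3838 genes with at least 2 above the floor, 46.7% had differences of both signs. Of the 7 members with at least 2, this was so for 3, namely Igf2, Igfbp4 and Igfbp7. Igf1, Igf1r, Igf2r and Igfbp5 kept a sign over all their probe sets above the floor. For Igf1 the probe sets spanned 0.55, less than the smallest of their differences, 0.84. The dimmer Igfbp5 probe set and the dimmest of Igfbp7 count here as above the floor through the knockout array alone.

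**Figure D4:**
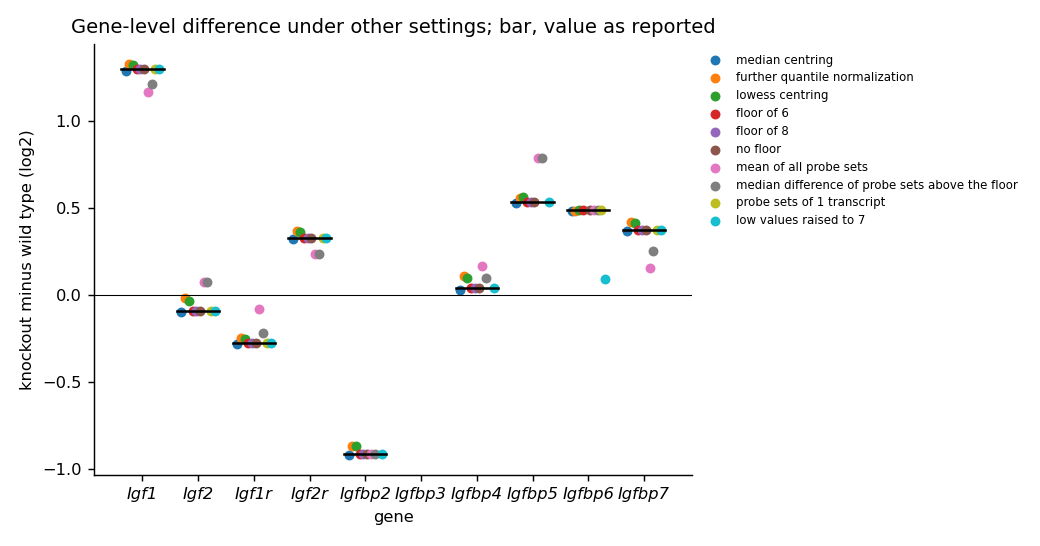
Difference of each member gene (log2, vertical axis) as reported (black bars) and under up to 10 other settings (coloured points). Igf1 stays between 1.17 and 1.33 and Igfbp2 between -0.92 and -0.87, whereas Igf2 crosses 0, at 0.07 with both ways of combining probe sets; Igfbp3, under the floor, has no point.

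Among other ligands, receptors and carriers of the axis, 1 gene, Crim1, passed 1.5-fold by its brightest probe set, with lower signal. Of 13 listed genes, 2 were not named here, 4 were under the floor in both arrays, among them the binding protein gene Igfbp1, and 7 were compared. Of these, 3 had higher and 4 lower signal, with a median of -0.07 that turned to 0.07 when probe sets of a gene were averaged. The insulin receptor gene Insr stood at -0.09 (8.27 and 8.18). Crim1, a membrane protein with an IGF-binding domain, was farthest at -0.61 (9.96 and 9.35), with its other probe set at -0.52. Kazald1, another protein with that domain, read 6.93 and 7.24, a difference of 0.31 that was 0.24 with values under 7 raised to 7. Igfals, which stabilises IGF complexes in blood, read 7.06 and 6.87, a difference of -0.19 that became -0.057 in that way. Igf2bp1, which binds Igf2 messenger RNA, stood at 0.11. The related Igf2bp3 stood at 0.03, but a dimmer probe set of it stood at 1.03.

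Proteases that act on binding proteins, with inhibitors, had 7 of 15 listed genes above the floor. Of these, 4 had higher and 3 lower signal, with a median of 0.21 that was -0.02 with no floor. Mmp3, which cleaves several matrix and binding proteins, was 2.23-fold higher (10.92 and 12.07) and was the 1 gene of this list past 1.5-fold. Mmp2 stood at 0.44 and Plat, the tissue plasminogen activator, at 0.37. Pappa, the protease of Igfbp4, read 6.62 and 6.88 and thus stayed under the floor, as did its inhibitor Stc1. Stc2, a related inhibitor, stood at -0.31, with 3 probe sets between -0.49 and -0.28. For Htra1, a serine protease, probe sets gave -0.08 and 0.33.

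Growth hormone acts through Ghr to induce Igf1. Ghr read 8.72 (wild type) and 9.03 (knockout), a difference of 0.31, with its other probe set at 0.39. Over the 9 compared genes of growth hormone signalling, 4 were higher and 5 lower, none passed 1.5-fold by its brightest probe set, and the median was -0.04. It was 0.01 when probe sets of a gene were averaged and -0.07 with a floor of 6. The inhibitor gene Socs2 stood at 0.05, but a dimmer probe set of it stood at -0.65. Cish, a feedback inhibitor, stood at 0.25 and the signal transducer Stat5a at -0.16. The phosphatase gene Ptpn1 stood at 0.16, with its other probe set at -0.23.

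Genes that carry or restrain the receptor signal inside the cell, listed together, were mostly slightly lower. Of 40 listed, 8 were not named here and 29 were compared, of which 24 (82.8%) had lower and 5 higher signal, beside 59.2% lower among all compared genes. None reached 1.5-fold by its brightest probe set and the median was -0.12, beside -0.05 over all compared genes. Grb10 stood at -0.08 and Shc1 at 0.16, but dimmer probe sets of theirs reached 1.31 and 0.77. The lowest probe set of the list above the floor was -0.51, for Gsk3b. The docking protein gene Irs1 read 11.44 and 11.03, a difference of -0.41, and Irs2 stood at -0.09. Eif4ebp1, a brake on translation, stood at -0.42, the kinase subunit gene Pik3r1 at -0.37 and the kinase gene Akt2 at -0.36. Further probe sets reached 0.01 for Eif4ebp1, 0.19 for Pik3r1 and -0.02 for Akt2. The list median stayed below 0, between -0.12 and -0.08, under all 10 other settings. The median of all compared genes was below 0 under each of them too, between -0.05 and -0.02.

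Mannose 6-phosphate sorting, the other task of Igf2r, gave 2 higher and 7 lower genes of 9 compared, none past 1.5-fold by its brightest probe set. The median was -0.13, and turned to 0.05 with averaged probe sets. Vps35 stood at -0.08, with its other probe set at 1.47. M6pr, the second sorting receptor, stood at -0.21, with its other probe set at 0.18. Gga3, an adaptor of these receptors, stood at -0.33, but its knockout reading, 6.89, is below 7. Nagpa and Gga1 stood at -0.18 and -0.15.

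Igf2 belongs to a set of imprinted genes that act on growth, and 15 others of that kind were compared. Of these, 5 had higher and 10 lower signal, with a median of -0.06. That median was -0.17 with the median difference of each gene's probe sets and -0.03 after a further quantile normalization. Among the 5 higher genes, Kcnq1 (6.73 and 7.11) passed the floor through the knockout array alone. Dlk1, a membrane ligand of the Notch family, was 2.13-fold lower (9.19 and 8.10) by its single probe set. Peg3 read 12.24 and 11.43, a difference of -0.81, with 3 probe sets from -0.81 to -0.23. Plagl1, a zinc finger factor, stood at -0.58 and -0.29. The noncoding RNA Rian stood at 0.62, with probe sets from 0.01 to 0.62. H19, the neighbour of Igf2, was not analysed here.

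**Figure D5:**
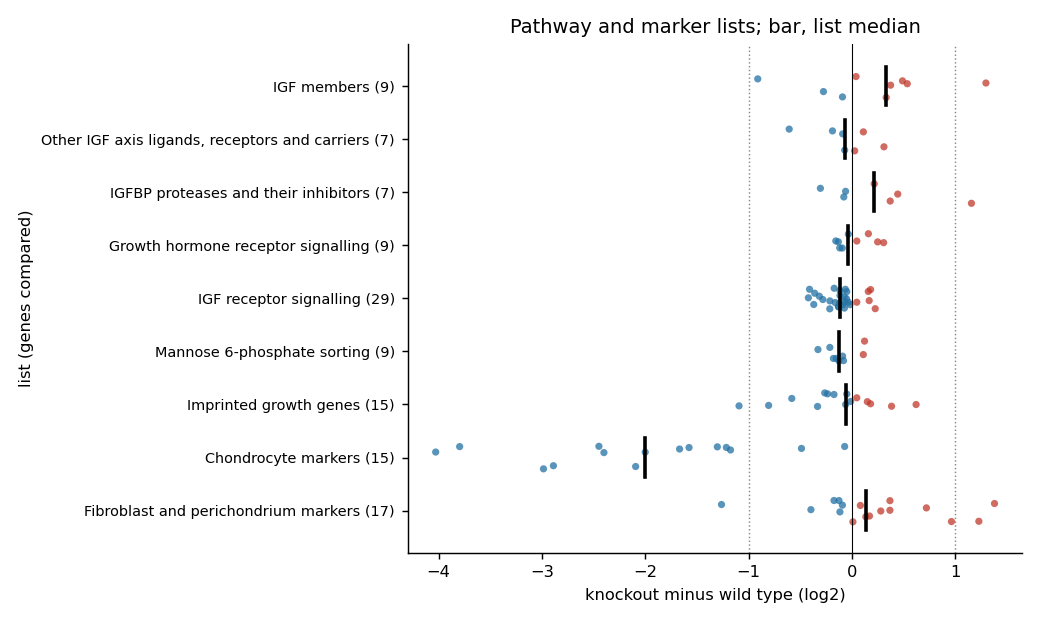
Knockout minus wild-type difference (log2, horizontal axis) of each compared gene in 7 lists of the IGF axis and 2 lists of cell type markers (rows, number of compared genes in brackets); red is higher, blue lower, black bars are list medians and dotted lines mark 2-fold. The 15 chondrocyte markers lie below 0 with a median of -2.00, while the medians of the IGF-axis lists lie between -0.13 and 0.33.

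Markers of other cells that a rib culture may hold were read beside these values. Of 17 compared markers of fibroblasts and perichondrium, 11 had higher and 6 lower signal in the knockout array, beside 40.0% higher among all compared genes. The median was 0.13 (0.34 with averaged probe sets). At 2-fold, 2 were higher, Col3a1 at 1.38 and Fap at 1.23, and 1 was lower, Postn at -1.26. Over all compared genes these shares were 0.475% and 1.22%. Summed linear signals cover all named markers of a list, also those under the floor. For the 20 of fibroblasts and perichondrium the sum was 63312 (wild type) and 71019 (knockout). For the 16 chondrocyte markers it was 73959 and 20241. Igf1 is also made by macrophages and fat cells. Of 10 macrophage and leukocyte markers, 5 were compared with a median of 0.01 (0.18 with probe sets of 1 transcript), and the summed signal of all 10 was 1134 and 1246. Csf1r (7.30 and 7.30), Cd68 (7.24 and 7.24) and Adgre1 (7.13 and 6.94) read near the floor in both arrays. Cd14 stood at 0.36 and Laptm5 at 0.49, with the other probe set of Laptm5 at -0.15. The other 5 markers, Ptprc among them, were under the floor in both arrays. Of 10 adipocyte markers, 5 were compared with a median of 0.15, and the summed signal of the 8 named here was 4351 and 5983. Lpl stood at 1.11, Fabp4 at 0.51 and Retn at 0.15, with the other probe set of Fabp4 at 1.06. Pparg stood at -0.18 and Cebpa at -0.48, and Adipoq was under the floor in both arrays. Skeletal muscle had 1 of 10 markers above the floor and endothelium 2 of 10, with Myod1, Myog, Pecam1 and Cdh5 under it in both arrays. Osteoblasts had 1 of 6 named markers above it, Omd at -0.90, and smooth muscle had 5 of 10, with a median of -0.13 that was -0.39 with a floor of 8 and 0.04 with probe sets of 1 transcript. The part of the chondrocyte, fibroblast, macrophage and adipocyte differences in those of Igf1, Igfbp2 and Igfbp5 was not tested.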

How the data were processed

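The authors deposited log2 signals made by Robust Multichip Average, per the labels' design text. This method corrects background, brings arrays to a common distribution and summarises probe sets. Affymetrix Expression Console 1.1 was used, per the submitters' processing notes. The log2 scale was read from the values. RMA removes differences shared by most genes and compresses those of dim probe sets. Of 45101 probe sets, 34945 beyond the 64 controls had a single symbol in the platform annotation, which was checked by Entrez identifier against RefSeq of GRCm38.p6. With Python 3.11.15 and pandas 2.3.3, knockout minus wild type was taken per probe set and per gene. Genes named outside the members were the 4 farthest from 0 above the floor in each list of the axis, plus Insr, Irs1, Irs2, Ghr, H19, Pappa, Htra1, Stc1, Stc2 and M6pr, and markers. Some marker genes lay beyond the first 4 of a list, Cebpa, Cd14, Laptm5, Retn, Omd, Matn1, Fap and Postn among them. These, Igfbp1, Tgfbi and Kcnq1 were named after their values were seen. The same holds for Igf2bp3, Socs2, Grb10, Shc1, Gsk3b and Vps35, named for their other probe sets. Members and lists were chosen with earlier results of these data known. Counting at the 2-fold threshold was checked on simulated data whose added changes all lay well past it. That check covers the code and not how well smaller changes are found. Alternatives covered centring, normalization, floors, fold threshold and the choice of probe sets.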

Additional observations from a re-analysis of the deposited data

How the results depend on the processing

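No paired analysis was possible because each group has 1 array, and for the same reason no array could be left out. Under the 10 other settings that kept the 2-fold threshold, 1 member, Igf1, was past it with higher signal and none with lower signal. With a 1.5-fold threshold and the brightest probe sets, 1 member, Igfbp2, was past it with lower signal. The median of the members was 0.33, and it was 0.17 with the mean of all probe sets and 0.094 with low values raised to 7. Igfbp6, the dim Igfbp5 probe set and the dimmest of Igfbp7 are limited by signal near background. A value was taken as moved when it changed by at least 0.15, the median standard deviation between probe sets of a gene. Of the other recomputed differences and list medians 17 moved and 187 did not. Many of the 187 could not move, because a change of floor leaves the value of a single gene as it is. Raising values under 7 likewise leaves genes above 7 in both arrays unchanged, so this count is no measure of stability.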
